A study of Solanum lycopersicum with 12 samples.

Results

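The genes described here are 81 of the 34075 in a tomato fruit count table. They were less abundant in slnor than in wild type (WT) 7 days after breaker but more abundant in slnor at breaker. At breaker the first yellow to red colour appears on a fruit that was green until then. The members were chosen on CPM, which divides a gene's count by its library's total and rescales it, averaged within a group, with 0.5 added. A member had a slnor over WT ratio of at most 0.66 at 7 days and of at least 1.5 at breaker, and a largest group value of at least 3.5. Of the 15101 genes that reached this level, 917 met the condition at 7 days, 2292 met the one at breaker, and 81 met both. The opposite pattern, at least 1.5 at 7 days and at most 0.66 at breaker, was met by 158 genes.

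The study sequenced fruit RNA in 12 libraries, 3 per group. The groups were slnor 7 days after breaker, WT 7 days after breaker, slnor at breaker and WT at breaker. WT is the cultivar Ailsa Craig, and slnor carries a CRISPR mutation of NAC-NOR (NOR) in that cultivar. All plants came from a controlled greenhouse. The labels give neither the sequence change nor the number of mutant lines. They also do not state whether the 3 libraries of a group are different plants, and the p-values cover no more than the spread among those libraries, which may be technical.

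NOR belongs to the NAC family of plant transcription factors, which bind DNA through a conserved domain at the start of the protein. In tomato, loss of NOR function is known for fruit that ripen slowly or incompletely. Ripening in this species depends on ethylene, and regulators such as NOR and RIN act on ethylene synthesis, pigment formation and softening.

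Library totals lay between 50714230 and 69124795 counts, and 20191 to 21255 genes had at least 1 count. Unless said otherwise, all levels from here on are CPM scaled with TMM, a method that adjusts library sizes so that most genes are centred on no change. The NOR transcript (Solyc10g006880.3) was present in every library, at 515 to 577 CPM in slnor and 459 to 479.8 CPM in WT 7 days after breaker. At breaker it stood at 776 to 896 CPM in slnor and 955 to 978 CPM in WT. Scaled to library totals instead, the genotypes overlapped at breaker, with 841 to 959 CPM in slnor and 916 to 935 CPM in WT. A small mutation need not change transcript amount, and the genotype labels cannot be checked from these levels. The tables pair no identifier with a gene name or product. NOR and NAC1 are named from published nomenclature, and all other genes are given by identifier. The first 2 digits of an identifier are its chromosome.

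Together the 81 genes took 1945 to 1986 CPM in the slnor libraries and 5651 to 5748 CPM in the WT libraries 7 days after breaker. At breaker they took 1976 to 2143 CPM in slnor and 1062 to 1077 CPM in WT. The summed level in slnor was thus nearly the same at both stages, although 44 single members fell and 23 rose in slnor (tests below). WT stood below that sum at breaker and far above it 7 days later, on the sides that the rule sets for each member. Without Solyc09g064940.2, the most counted member, the sums had the same order. They were 1540.1 to 1560.2 CPM in slnor and 4318 to 4421 CPM in WT at 7 days, and 1517 to 1668 CPM in slnor and 719.6 to 737 CPM in WT at breaker. In bulk fruit RNA, fewer cells of a type and less RNA per cell cannot be told apart.

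The contrasts between slnor and WT chose these genes, so they are given as a description with no test. The median member was 2.64-fold lower in slnor 7 days after breaker and 2.29-fold higher in slnor at breaker. The 7-day libraries did not overlap, with slnor lower, in 80 of the 81 members, against 31.5% of all 20070 genes tested. At breaker they did not overlap, with slnor higher, in 75 members, against 29.7% of all genes tested. Both held for 74 members, against 4.9% of all genes. Nothing is read from these counts, since the rule uses the same values. Just inside the 7-day limit lay Solyc08g014010.4 and Solyc02g078480.3, with ratios of 0.6534 and 0.6522. Just outside it lay Solyc04g054730.3 (0.6604) and Solyc06g008050.4 (0.665). At breaker, Solyc02g062670.3 (1.501) and Solyc07g005410.3 (1.506) lay just inside, and Solyc11g045120.3 (1.4847) and Solyc08g079700.3 (1.4823) just outside. These ratios use library totals. With TMM scaling the breaker ratio was 1.352 for Solyc02g062670.3 and 1.375 for Solyc07g005410.3, under the limit. Of the genes meeting both ratios, Solyc07g005410.3 (3.609) and Solyc10g086680.1 (3.616) lay just inside the level minimum, and Solyc09g082340.2 (3.463) and Solyc11g027840.2 (3.327) just outside.

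**Figure D1:**
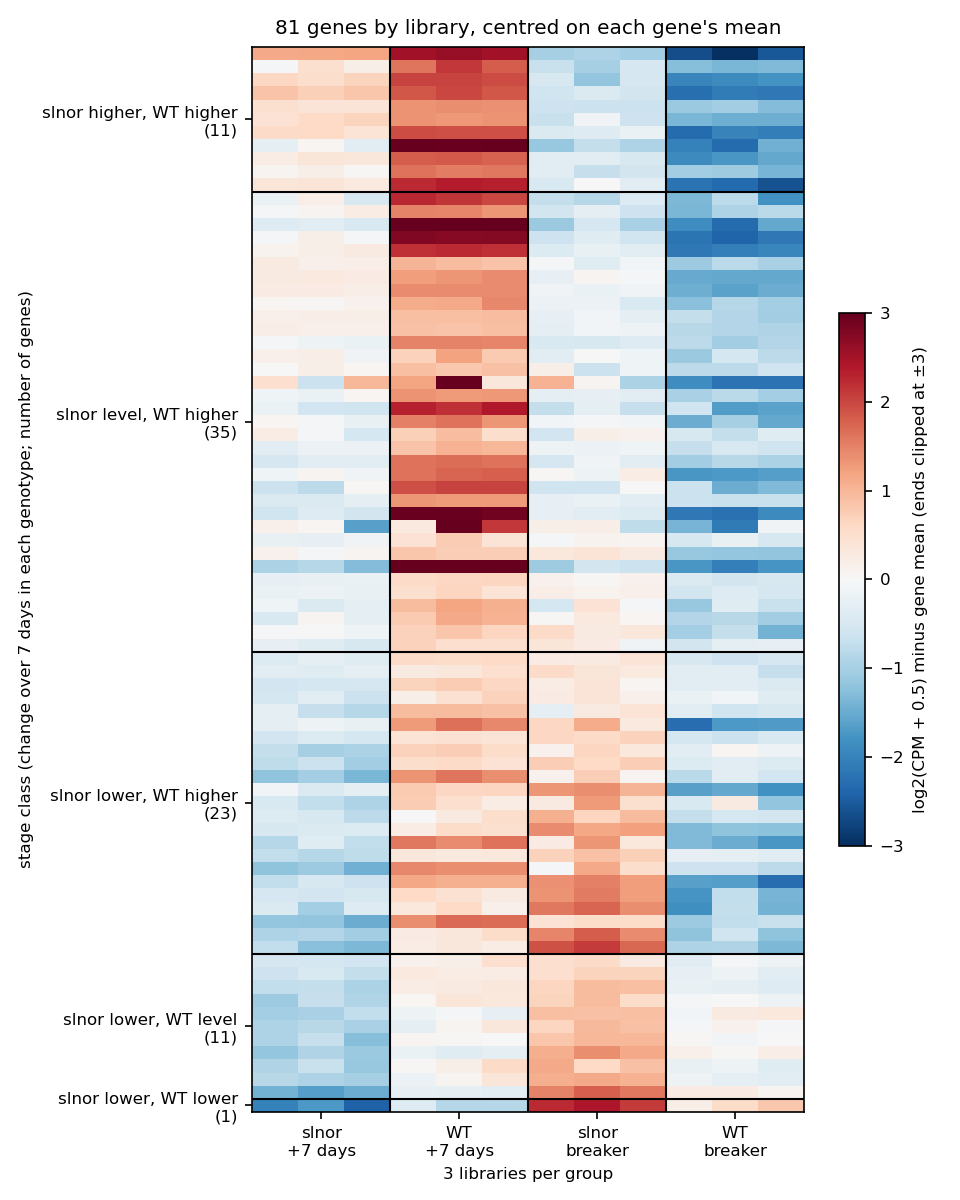
Each row is 1 of the 81 genes and each column 1 library. Colour is log2(CPM + 0.5) minus the gene's mean over 12 libraries, clipped at 3 in either direction. Rows are grouped by how the gene changed over 7 days in slnor and in WT. The highest group is slnor at breaker in 25 genes and WT at 7 days in 56.

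The rule did not set the change of either genotype alone over the 7 days. It did require the slnor change to be the lower of the pair, so the stage changes are not free of the rule. In slnor, 23 of the 81 members rose over that time and 44 fell, by edgeR's quasi-likelihood test with Benjamini-Hochberg adjustment over all genes tested. Among all genes tested, 26.2% rose and 26% fell in slnor. In WT, 75 members rose and 4 fell, against 33.2% and 32.1% of all genes. With a change of at least 2-fold required as well, 6 members rose and 30 fell in slnor, against 4.15% and 8.68% of all genes. The same requirement left 61 that rose and 1 that fell in WT, against 7.01% and 14.6% of all genes. The choice of members leans these counts downward in slnor and upward in WT. It favours genes low in WT at breaker and high in WT later, and high in slnor at breaker and low in slnor later. The median log2 fold change was −0.32 in slnor and 2.25 in WT, beside −0.01 in slnor and 0.001 in WT over all genes tested.

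Of the members, 38 fell in slnor and rose in WT, against 2.4% of all genes tested. The choice of members leans this count upward, so nothing is read from it. A further 23 rose in both genotypes, against 18.9% of all genes, and 14 did not pass the test in slnor while rising in WT, against 11.9%. Another 4 fell in both (18.1% of all genes), and 2 fell in slnor without passing in WT (5.43%). No member rose in slnor while falling in WT, a combination found in 575 of all genes tested. It is one that the rule cannot admit, since the slnor change must be the lower of the pair. In 48 members both slnor group means lay between the 2 WT means, with WT at breaker the lower, against 11% of all genes tested. In 47 members every slnor library at breaker lay above all WT libraries at breaker and below all WT libraries at 7 days, against 6% of all genes tested. Both counts rest partly on the contrasts that chose the genes, and nothing is read from them.

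**Figure D2:**
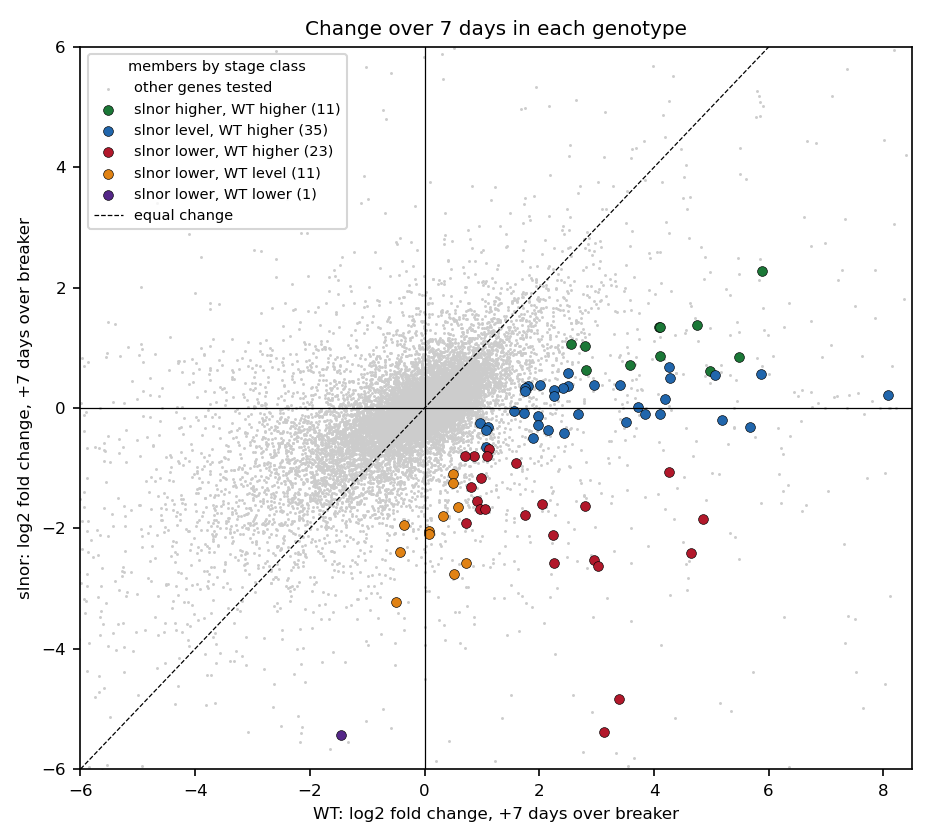
The y axis is the log2 fold change over the 7 days after breaker in slnor and the x axis the same change in WT. Coloured points are the 81 members by stage class and grey points are other genes tested (those beyond the axes are not shown). Every member lies below the dashed line of equal change, as the rule requires. Of the members, 23 rose in slnor and 75 in WT.

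The members were placed in classes by whether the group mean at 7 days plus 0.5 CPM was at least 1.5 times the breaker mean (higher), at most the inverse of it (lower) or between (level). Level in slnor and higher in WT held for 35 members, lower in slnor and higher in WT for 23, and higher in both for 11. Lower in slnor and level in WT held for another 11, and 1 gene was lower in both. In that order the classes hold 43.2%, 28.4%, 13.6%, 13.6% and 1.23% of the members, against 7.73%, 0.43%, 5.07%, 2.45% and 8.73% of all genes at the level minimum. The choice of members leans these shares as it does the stage counts. The classes are by size alone, and within the first of them 12 members rose in slnor, 9 fell and 14 did not pass the test.

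**Figure D3:**
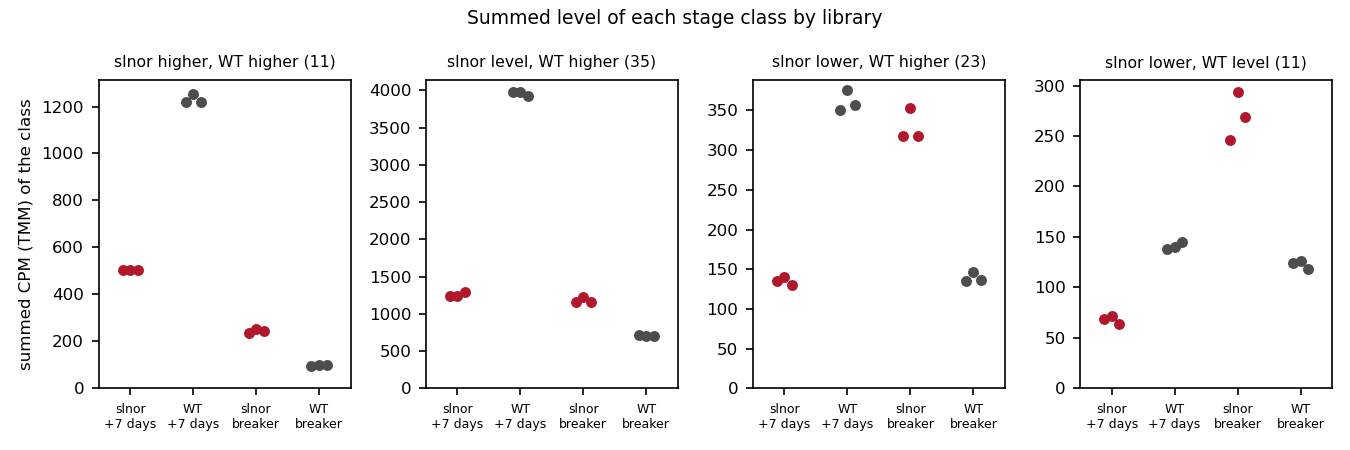
Each point is 1 library, and its height is the summed TMM-scaled CPM of all members of a stage class. Panels are the 4 classes with more than 1 gene, and each y axis starts at 0 with its own range. In the level class the slnor libraries stay between 1153 and 1289 CPM at both stages, while the WT libraries stand at 3929 to 3977 CPM at 7 days and 699.6 to 714 CPM at breaker. The class limits set the direction of these changes. Solyc09g064940.2 alone has a mean of 417 CPM in slnor and 1342 CPM in WT at 7 days, and 458 and 343 CPM at breaker.

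NAC1 (Solyc04g009440.3), a transcription factor gene of the same NAC family as NOR, is a member of the class that fell in slnor and rose in WT. At 7 days it had 11.3, 11.7 and 11.9 CPM in slnor, against 18.9, 23.8 and 22.4 CPM in WT. Its breaker levels were 43.9, 36.6 and 38.5 CPM in slnor, against 6.08, 6.69 and 6.51 CPM in WT. The groups did not overlap at either stage, and slnor at breaker was the highest of the 4 groups. NAC1 fell 3.41-fold over 7 days in slnor (log2 fold change −1.77, SE 0.085, edgeR adjusted p = 2.50e-11). In WT it rose 3.38-fold over the same days (log2 fold change 1.76, SE 0.092, edgeR adjusted p = 2.86e-11). The mutant at breaker thus stood at 183% of the 7-day WT level. NOR itself fell over the 7 days, by 0.58 in slnor and 1.05 in WT (log2), with edgeR adjusted p = 2.56e-08 in slnor and 6.36e-12 in WT. These 2 NAC genes both fell in slnor and moved in opposite directions in WT.

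The other members of that class reached at most 70.3 CPM in any group mean. Over all 23 members of the class, the median fall in slnor was 3.2-fold and the median rise in WT 3.38-fold. All 23 passed the test in both genotypes, against 2.4% of all genes tested with those 2 calls. The class limits use the same stage means, so nothing is read from that count. Solyc07g054770.1, the most counted of them, had 35, 38.2 and 36.2 CPM in slnor at 7 days, against 70.5, 69.2 and 71.1 CPM in WT. Its breaker levels were 55.5, 56.7 and 62.6 CPM in slnor, against 33.7, 30.3 and 33 CPM in WT. The 4 groups formed 2 pairs, slnor at breaker just under WT at 7 days, and slnor at 7 days just over WT at breaker. It fell by 0.68 on the log2 scale in slnor (SE 0.053, edgeR adjusted p = 1.37e-08). It rose by 1.12 in WT (SE 0.054, edgeR adjusted p = 1.07e-11).

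The class also held the 4 members with the highest breaker ratio under the rule. Picking them for that ratio leans their change in slnor downward. Solyc04g083140.2 had 0.946, 1.23 and 1.09 CPM in slnor at 7 days, against 4.97, 4.58 and 4.55 CPM in WT. The breaker libraries had 5.78, 6.41 and 5.26 CPM in slnor, against 0.289, 0.272 and 0 CPM in WT. It was at or near 0 in WT at breaker, when all slnor libraries exceeded the later WT level. Solyc05g053610.2 had 0.0977 ± 0.141 CPM in slnor and 1.02 ± 0.0833 in WT at 7 days, and 4.31 ± 0.639 in slnor and 0.115 ± 0.1 in WT at breaker (SD, n = 3). Its fall in slnor was the largest in the class (log2 fold change −5.38, SE 0.617, edgeR adjusted p = 1.31e-06). That fall ended near 0, at 0.259, 0.0338 and 0 CPM in slnor at 7 days, so its size is uncertain. Solyc05g015850.4 and Solyc09g075820.3 were 12.5-fold and 10.6-fold higher in slnor at breaker, and 2.33-fold and 2.05-fold lower at 7 days. In 13 of the 23 members slnor at breaker was the highest group, and in 10 it was WT at 7 days.

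The largest class, level in slnor and higher in WT, held the most counted member, Solyc09g064940.2. Solyc09g064940.2 had 405, 400.4 and 445 CPM in slnor at 7 days, against 1370.5, 1327 and 1329 CPM in WT. The breaker libraries had 459, 475 and 439.9 CPM in slnor, against 347, 339.7 and 342 CPM in WT. WT at 7 days stood far above the other 3 groups, whose libraries all lay between 339.7 and 475 CPM. It fell slightly in slnor (log2 fold change −0.14, SE 0.039, edgeR adjusted p = 7.73e-03) and rose 3.91-fold in WT (1.97, SE 0.040, edgeR adjusted p = 1.39e-16). Without slnor replicate 2 of the later stage, the change in slnor had an edgeR adjusted p = 0.0502 (4.11e-04 to 0.0502 over the 12 left-out libraries). Its breaker ratio was 1.335 with TMM scaling, under the rule's limit, and it was also lost from the members without slnor replicate 2 at breaker.

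Solyc11g069700.2 had 120, 126 and 135 CPM in slnor at 7 days, against 516, 529 and 512 CPM in WT. Its breaker levels were 83.7, 96.8 and 88.1 CPM in slnor, against 25, 26.5 and 28.3 CPM in WT. The 4 groups were fully separate, with both slnor groups between the WT groups. It rose 1.42-fold in slnor (log2 fold change 0.50, SE 0.054, edgeR adjusted p = 5.72e-07) and 19.5-fold in WT (4.28, SE 0.062, edgeR adjusted p = 3.23e-18).

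In this class, 3 members with low levels in slnor were among the 4 members with the largest 7-day difference under the rule. Picking them for that difference leans their rise in WT upward, so nothing is read from its size or p-value. Solyc05g015060.4 had 7.05, 7.64 and 5.47 CPM in slnor, against 179, 178 and 187 CPM in WT, 27-fold lower. At breaker it had 6.53, 9.47 and 8.88 CPM in slnor, against 3.84, 3.04 and 3.79 CPM in WT. Its slnor libraries at both stages thus lay between 5.47 and 9.47 CPM. In WT it rose 51-fold (log2 fold change 5.68, SE 0.124, edgeR adjusted p = 3.01e-16). Solyc03g117860.3 had 13.3, 15.6 and 13.8 CPM in slnor at 7 days, against 164, 164 and 156 CPM in WT. The breaker libraries had 17.2, 16.4 and 15.4 CPM in slnor, against 4.25, 3.95 and 5.09 CPM in WT. It rose 36.4-fold in WT, and its slnor libraries stayed between the WT groups. Solyc10g076370.3 stood at 2.56 ± 0.141 CPM in slnor and 34.6 ± 1.56 in WT at 7 days, and at 1.73 ± 0.526 in slnor and 0.591 ± 0.28 in WT at breaker (SD, n = 3), a 58.6-fold rise in WT.

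The slnor changes of these 3 genes were small, and their calls depended on single libraries. Solyc05g015060.4 had a log2 fold change of −0.31 in slnor (SE 0.123, edgeR adjusted p = 0.0428). The adjusted p passed 0.05 without slnor replicate 2 or 3 at breaker, slnor replicate 1 or 3 at 7 days, WT replicate 3 at breaker, or any WT replicate at 7 days (0.00241 to 0.23 over the 12 left-out libraries, edgeR). For this gene it was also 0.113 with DESeq2, 0.111 with slnor alone in the fit and 0.0614 with the replicate block. Solyc03g117860.3 had a log2 fold change of −0.20 in slnor (SE 0.071, edgeR adjusted p = 0.0254). Its call was lost without slnor replicate 1 or 2 at breaker or 1 or 3 at 7 days (edgeR adjusted p 0.00656 to 0.123 over the 12), and with slnor alone in the fit (0.0528). Solyc10g076370.3 had a log2 fold change of 0.57 in slnor (SE 0.196, edgeR adjusted p = 0.0232). That call was lost without slnor replicate 1 or 3 at breaker or 1 or 2 at 7 days (edgeR adjusted p 0.00158 to 0.102 over the 12), and with library totals in place of TMM (0.0542).

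Further members of this class had smaller differences. Solyc09g075420.3 had 199, 193 and 194 CPM in slnor at 7 days, against 323, 316 and 327 CPM in WT, and 142, 165 and 156 CPM in slnor at breaker, against 98.2, 94.2 and 93.4 CPM in WT. Its libraries did not overlap between any 2 groups, and it rose in both genotypes, by log2 fold changes of 0.34 (SE 0.044) in slnor and 1.76 (SE 0.046) in WT. Solyc01g107820.2 had 65.9, 67.7 and 68.2 CPM in slnor at 7 days, against 117, 122 and 123 CPM in WT, and 86, 80.5 and 86 CPM in slnor at breaker, against 58.5, 53.6 and 56.1 CPM in WT. It fell 1.25-fold in slnor (edgeR adjusted p = 4.85e-06) and rose 2.16-fold in WT (edgeR adjusted p = 4.13e-13). With TMM scaling its breaker ratio was 1.497, just under the rule's limit.

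**Figure D4:**
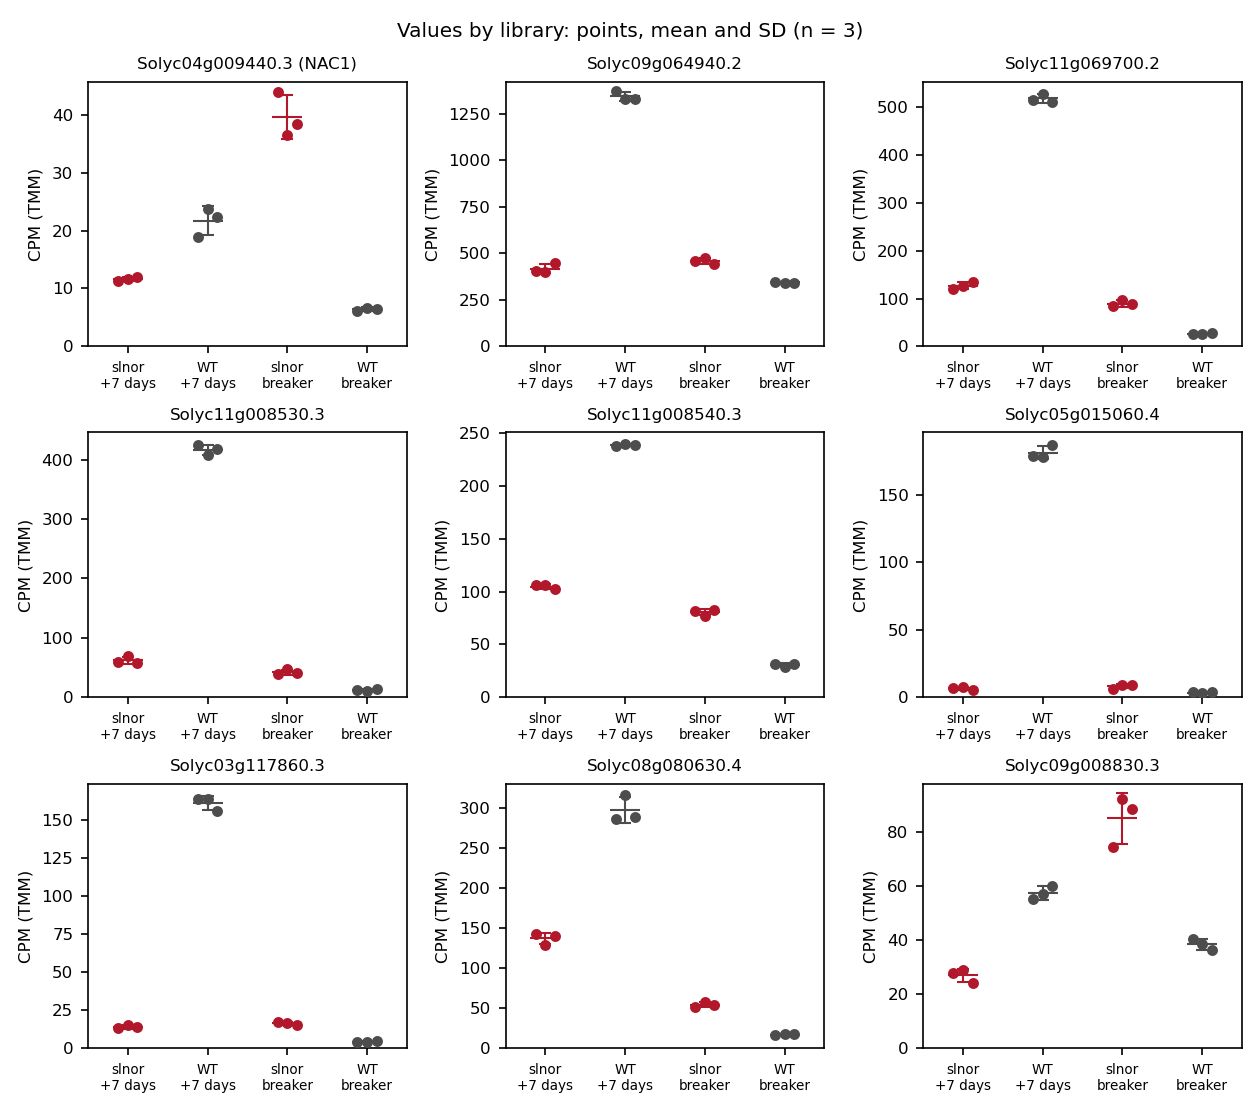
Each panel is 1 member, each point 1 library, and the bars are the mean and SD of 3 libraries, in TMM-scaled CPM on axes that start at 0. slnor is red and WT grey. NAC1 and Solyc09g008830.3 are highest in slnor at breaker, and the other 7 genes in WT at 7 days.

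The 11 members that were higher at 7 days in both genotypes had a median rise of 2.04-fold in slnor and 17.3-fold in WT. All passed the test in both, against 18.9% of all genes tested, a count that the class limits lean upward. Solyc08g080630.4 had 142, 129 and 139.8 CPM in slnor at 7 days, against 286, 315 and 288 CPM in WT. Its breaker levels were 51.6, 58 and 53.4 CPM in slnor, against 16, 18 and 17.4 CPM in WT. From low to high the groups were WT at breaker, slnor at breaker, slnor at 7 days and WT at 7 days, with no overlap. It rose 2.52-fold in slnor (log2 fold change 1.34, SE 0.054, edgeR adjusted p = 3.08e-12) and 17.3-fold in WT (4.11, SE 0.062, edgeR adjusted p = 4.09e-18).

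Solyc07g006890.1 had 95.7, 98.3 and 85.4 CPM in slnor at 7 days, against 251, 249 and 248 CPM in WT. The breaker libraries had 47.9, 48.9 and 56.4 CPM in slnor, against 12.7, 15.6 and 14.9 CPM in WT, the same order of groups. It rose 1.82-fold in slnor (log2 fold change 0.87, SE 0.068) and 17.3-fold in WT (4.11, SE 0.078). Solyc08g062220.3 had 4.12, 5.41 and 4.04 CPM in slnor at 7 days, against 46.4, 43.6 and 48.3 CPM in WT, and 2.06, 2.95 and 2.47 CPM in slnor at breaker, against 0.887, 0.652 and 1.57 CPM in WT. It rose 1.81-fold in slnor and 44.6-fold in WT. WT at 7 days was the highest group and WT at breaker the lowest in this class, an order that the rule and the class limits fix.

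The 11 members that were lower at 7 days in slnor and level in WT were highest in slnor at breaker and lowest in slnor at 7 days, an order that the rule and the class limits fix. Their median fall in slnor was 4.14-fold. All 11 passed the test there, against 26% of all genes tested that fell in slnor, a count that the class limits lean upward. In WT, 6 rose, 3 fell and 2 did not pass, beside 33.2% of all genes that rose and 32.1% that fell. Solyc09g008830.3 had 28, 28.9 and 24.3 CPM in slnor at 7 days, against 55.1, 57 and 60.1 CPM in WT. Its breaker levels were 74.5, 92.3 and 88.4 CPM in slnor, against 40.3, 38.7 and 36.3 CPM in WT. The slnor libraries thus lay on both sides of all WT libraries. It fell 3.14-fold in slnor (log2 fold change −1.65, SE 0.076, edgeR adjusted p = 1.50e-11) and rose 1.49-fold in WT (0.58, SE 0.076, edgeR adjusted p = 3.46e-06). Chosen after its values were seen, Solyc03g006490.3 fell furthest in this class, by 3.22 on the log2 scale in slnor (SE 0.087). It stood at 7.91 ± 0.703 CPM in slnor and 19.4 ± 0.531 in WT at 7 days, and at 74 ± 8.43 in slnor and 27.1 ± 1.97 in WT at breaker (SD, n = 3).

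The 1 gene that was lower at 7 days in both genotypes, also chosen after its values were seen, was Solyc01g095620.3. It had 0.397, 0.592 and 0.179 CPM in slnor at 7 days, against 2.29, 1.49 and 1.49 CPM in WT. Its breaker levels were 16.5, 19.1 and 14.9 CPM in slnor, against 3.57, 4.78 and 5.9 CPM in WT. It fell by 5.43 on the log2 scale in slnor (SE 0.276) with edgeR adjusted p = 4.64e-11. In WT it fell by 1.45 (SE 0.232, edgeR adjusted p = 3.46e-05).

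By identifier, the members lay on all 12 chromosomes, from 3 on chromosome 11 to 11 on chromosome 2. These are 3.7% and 13.6% of the members, against 6.69% and 10.6% of genes at the level minimum. A further 2 carried chromosome number 0, which marks sequence placed on no chromosome (2.47%, against 0.146%). Nothing is read from these counts. Among the members placed on a chromosome, 2 pairs had identifiers within 5 steps of 10 of each other, and no run was longer. How often other genes pair in this way was not counted. The first pair, Solyc11g008530.3 and Solyc11g008540.3, has consecutive identifiers. Solyc11g008530.3 had 59.2, 68.7 and 58.3 CPM in slnor at 7 days, against 424, 407 and 418 CPM in WT, and 39.6, 47 and 40.1 CPM in slnor at breaker, against 13, 11.1 and 13.5 CPM in WT. Solyc11g008540.3 had 106, 106 and 102 CPM in slnor at 7 days, against 238, 239.9 and 239 CPM in WT, and 81.9, 77.3 and 82.5 CPM in slnor at breaker, against 31.9, 29 and 31.3 CPM in WT. Both had the same order of groups. Solyc11g008530.3 rose 1.47-fold in slnor (edgeR adjusted p = 6.18e-06) and 33.2-fold in WT. Solyc11g008540.3 rose 1.3-fold in slnor (edgeR adjusted p = 4.11e-07) and 7.77-fold in WT. Per length, on the deposited FPKM, Solyc11g008530.3 was at 87.5 and Solyc11g008540.3 at 54.2 in WT at 7 days, and at 2.66 and 7.04 in WT at breaker, so their order turned.

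The identifiers on either side, named for their position, did not meet the rule. Solyc11g008520.3 stood under 0.1 CPM in every group mean. Solyc11g008550.3 stood at 29.1 CPM in slnor and 27 CPM in WT at 7 days, and at 24.4 CPM in slnor and 19.8 CPM in WT at breaker. The second pair, Solyc07g054770.1 described above and Solyc07g054790.1, chosen after its values were seen, lies in a run of short genes with 1 identifier between them. Solyc07g054790.1 had 16.9, 19 and 17.4 CPM in slnor at 7 days, against 34, 35.2 and 33.9 CPM in WT, and 39.7, 38.2 and 41.6 CPM in slnor at breaker, against 17.4, 16.2 and 18.5 CPM in WT. The identifier between them, Solyc07g054780.1, was more abundant and less different, at 218 CPM in slnor and 274 CPM in WT at 7 days and 220 CPM in slnor and 163 CPM in WT at breaker. Of others nearby, also named for their position, Solyc07g054760.1 was 2.14-fold lower in slnor at 7 days and 0.973 times WT at breaker. Solyc07g054810.1 was 10.4-fold lower at 7 days and 1.84-fold higher at breaker. With at most 2.47 CPM in any group mean and a breaker ratio of 1.439 under the rule, it was no member. Whether neighbouring copies share reads was not tested, since no sequence was used here, so the pairs are uncertain as single genes.

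Members were shorter and less counted than the other genes at the level minimum. Their median length was 1261 bases (200.4 to 4696), against 1619 bases over all 15101 genes, with length taken from count over FPKM. The median of the largest group mean was 15.3 CPM, against 30.9 CPM, and 28 members stayed under 10 CPM in every group while 14 reached 100 CPM. The spread between replicates was wider than over all those genes, but the members were less counted, and no genes matched for level were compared. The median coefficient of variation was 8.97% in slnor and 6.1% in WT at 7 days, and 12.2% in slnor and 10.8% in WT at breaker. Over all genes at the level minimum it was 4.8% in slnor and 4.44% in WT at 7 days, and 5.53% in slnor and 5.12% in WT at breaker. Of the slnor libraries at breaker, replicate 2 exceeded its group mean in 56 of the 81 members, with a median deviation of 0.096 on the log2 scale.

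The pattern was also looked at in libraries that the choice had not used. When genes were chosen from the libraries with 2 of the 3 replicate numbers, 93, 75 and 88 genes met the rule. In the held-out libraries with numbers 1, 2 and 3, 92.5%, 98.7% and 92% of them lay below WT at 7 days and above it at breaker. Of all genes at the level minimum, 22.6%, 22.4% and 22.8% lay on those sides in the same libraries. Both fold limits were met there by 64.5%, 77.3% and 70.5% of the chosen genes, against 0.569%, 0.722% and 0.656% of all genes at the level minimum. Median folds in the held-out libraries were 1.88, 2.18 and 2.3 lower in slnor at 7 days, and 2.12, 2.14 and 2.11 higher in slnor at breaker. Since the libraries of a group may be technical repeats, this shows no more than how the values repeat between libraries.

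For 21 of the 81 members, among them Solyc09g064940.2, leaving out 1 library was enough to lose membership. Solyc00g500325.1 had 2.78, 0.998 and 4.12 CPM in slnor at 7 days, against 4.78, 31.1 and 2.43 CPM in WT, and 4.27, 1.95 and 0.703 CPM in slnor at breaker, against 0.144, 0 and 0 CPM in WT. A single WT library set its 7-day mean, the groups overlapped at that stage, and without WT replicate 2 it was no longer a member. It rose in WT (log2 fold change 8.09, SE 1.323, edgeR adjusted p = 4.26e-05), from a level near 0. The other member of the unplaced sequence, Solyc00g500296.1, chosen after its values were seen, had 3.86, 3.6 and 0.781 CPM in slnor at 7 days, against 4.3, 31 and 16.7 CPM in WT. At breaker its genotypes overlapped, with 3.97, 4.04 and 1.84 CPM in slnor, against 1.01, 0.399 and 3.15 CPM in WT. At breaker 6 members overlapped between genotypes, all with both breaker means under 5 CPM. Apart from the 21 members lost at least once, 60 of the 81 met the rule in all 12 cases.

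Of 50 genes of ripening pathways with published names, in 15 lists that cover ripening transcription factors, ethylene, carotenoids, cell wall softening, cuticle, flavonoids, glycoalkaloids, volatiles, sugar and starch, abscisic acid, chlorophyll loss, seed and light harvesting, 1 was a member, NAC1. The lists are partial, with 1 to 6 genes each, and 0.536% of all genes at the level minimum are members, so nothing is read from the lists that hold none. The summed level of 4 cuticle genes, markers of epidermis, was 249 to 262 CPM in slnor and 109 to 109.8 CPM in WT at 7 days, and 168 to 183 CPM in slnor and 529.8 to 554 CPM in WT at breaker. This sum thus differed between genotypes in the opposite sense to the members at both stages. The sum of 4 photosystem, light-harvesting and Rubisco genes, markers of green tissue, was 252 to 263 CPM in slnor and 217 to 224 CPM in WT at 7 days. At breaker it was 593 to 653 CPM in slnor and 771 to 829 CPM in WT, so the green tissue sum also differed in the opposite sense to the members at both stages. The seed marker Solyc06g060840.1 stood at 0.179 to 0.676 CPM in slnor and 14.2 to 16.4 CPM in WT at 7 days, and at 6.25 to 7.32 CPM in slnor and 67.5 to 74.7 CPM in WT at breaker. None of these 9 markers was at 0 in any group, and their part in the members' levels was not tested.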

How the data were processed

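Per the file headers, the authors deposited a table of raw gene counts with a column for each library, and 1 further table per library. The unit of those further tables was inferred to be FPKM, since the deposited tables do not name it. The gene length implied by count, this value and library total was the same in 12 libraries within 1% for 100% of 7290 genes. FPKM served for gene length and for 1 comparison per length. The submitters' processing notes name HISAT, UMI-tools, StringTie and edgeR without version or role. Genome build, annotation and strand setting were not given in the sources used here.

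Members were chosen on CPM by library total. Levels in the text are CPM with TMM factors of 0.9474 to 1.092. Stage changes were tested with edgeR 4.0.16 in R 4.3.3 (glmQLFit, glmQLFTest) over 12 libraries in 1 fit, after filterByExpr, which kept 20070 genes and all 81 members. The call threshold was an adjusted p of 0.05. SE is the log2 fold change over the square root of F. Alternatives used DESeq2 1.42.0, library totals, no filter, 1 genotype, a replicate block and left-out libraries. Replicate pairs varied beyond counting error (chi-square over degrees of freedom 4.655 to 14.18), and all 12 libraries were kept.

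The test was checked on simulated counts of 19713 genes with 200 changed, as many up as down and opposite in the 2 genotypes. In the real data far more genes changed, with 33.2% higher and 32.1% lower in WT and 26.2% and 26% in slnor. The rates below therefore do not show how the test does with so many changes. For the slnor stage change it recovered 79.1% of genes changed 1.5-fold, 86.57% of those changed 2-fold and 96.97% of those changed 4-fold, with 6 false calls. For the WT stage change it recovered 74.63%, 83.58% and 95.45% at those folds, with 11 false calls. The 2-fold rate in WT fell short of the 85% first set as the requirement, which was then replaced by 90% at 4-fold, with the test itself unaltered.

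The members and lists were chosen with earlier results of these data known. Named genes are the listed member, the 8 of highest mean CPM, the 6 with the largest product of both ratios, the 4 with the largest ratio at each stage, the most counted of each class with at least 5 members, those nearest the limits and NOR. Genes outside this rule are marked as chosen after their values were seen or for their position.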

Additional observations from a re-analysis of the deposited data

How the results depend on the processing

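TMM scaling in place of library totals gave 75 genes, 67 of them among the 81, and DESeq2 size factors gave 73, with 66 shared. Pseudocounts of 1 and 0.1 gave 76 and 95 genes, with 74 and 77 shared. Requiring 2-fold differences left 32 and a higher level minimum left 53, fewer by construction. Leaving out single libraries gave 75 to 88 genes, with 74 to 80 shared. Of the members, 21 to 24 then rose and 41 to 44 fell with stage in slnor, and 71 to 75 rose and 3 to 4 fell in WT. DESeq2 gave 23 and 42 in slnor and 73 and 4 in WT, and library totals 19 and 45 in slnor and 73 and 4 in WT. No filter gave 23 and 44 in slnor and 74 and 4 in WT, and fits of 1 genotype 23 and 42 in slnor and 74 and 4 in WT. With a 2-fold minimum, 6 rose and 30 fell in slnor, and 61 rose and 1 fell in WT. The replicate block gave 23 and 43 in slnor and 74 and 4 in WT. Same-numbered libraries did not deviate together (18 correlations, −0.07155 to 0.07024), and 6 of 12 libraries correlated best with their own number, so the numbers were not taken as pairs.

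Of 816 values for named genes under 17 settings, 789 kept their direction and call, 22 lost the call and 5 changed sign. The 5 were log2 fold changes with stage in slnor that did not pass the test. Solyc07g005410.3 stood at 0.101, 0.08 and 0.175 without slnor replicates 2 and 3 at breaker and 3 at 7 days (−0.305 to 0.175 over left-out libraries). Solyc00g500325.1 stood at −0.231 and −0.245 without slnor replicate 3 at breaker or at 7 days (−0.245 to 1.013). The cause was not tested.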
